A study of Mus musculus with 9 samples.

Results

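The enzymes that make the building blocks of DNA were followed in B.END3 cells, a mouse brain endothelial cell line, after photodynamic treatment. The group held 9 genes, chosen by name from the 54532 genes of the expression table: Rrm1, Rrm2, Rrm2b, Tyms, Tk1, Dck, Dut, Dctd and Shmt1. All 9 were listed, and all 9 passed the filter on low values (at least 1 FPKM in at least 3 libraries). FPKM is the number of sequenced fragments scaled to gene length and to the depth of the library.

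The study asked what porfimer sodium, a light-activated drug, does to the transcriptome of these cells at different light doses. Ctrl cells were untreated. Ep1 and Ep2 cells were both given 300 µg/mL porfimer sodium for 90 min and then 635 nm laser light at 100 mW/cm2, to a dose of 10 J/cm2 for Ep1 and 20 J/cm2 for Ep2. Each group had 3 RNA sequencing libraries, of 16240688 to 19509225 fragments. The strain label of all libraries was C57BL/6. No library had the drug alone or the light alone, so in comparisons with Ctrl the effects of drug and light cannot be told apart. By the stated conditions, Ep1 and Ep2 differed only in light dose. The time from light to lysis is not given in the sources used here, nor whether the libraries of a group came from separate cultures, so p-values measure the spread between these libraries, which may be technical.

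The organism label is mouse, although the growth protocol and the study's methods call the cells rat. The cell type label was checked against 12 endothelial markers, of which 2 (Eng and Ly6c1) reached 1 FPKM in at least 3 libraries, while Erg and Emcn were at 0 in all 9. Of 5 epithelial markers, 4 reached that level, with Krt8 at 628 to 658 FPKM, Krt18 at 230.5 to 243 and Krt19 at 170 to 178 in Ctrl. Epcam was at 0.763 to 0.898 FPKM in Ctrl and reached the level only through treated libraries. Cdh1 was at most 0.103 FPKM in any library. The summed epithelial list ran from 1029 to 1081 FPKM in Ctrl, from 937 to 1041 in Ep1 and from 1155 to 1372 in Ep2, and the summed endothelial list from 60.2 to 64.2, from 53.2 to 59.4 and from 54.3 to 83.4. Ly6c1 alone made up most of the endothelial sum, at 57.5 to 61.5 FPKM in Ctrl, and keratins made up most of the epithelial sum. None of 5 immune markers reached 1 FPKM (summed list at most 0.210), and the fibroblast or pericyte list (1 of 8 detected) and the neural or glial list (1 of 5) summed to at most 8.98 and 3.04 FPKM. Ep2 libraries had 20375 to 20981 genes above 0 against 19935 to 19993 in Ctrl and 19947 to 20146 in Ep1. The part of these shifts in the results below was not tested.

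DNA synthesis needs a balanced supply of deoxynucleotides. Ribonucleotide reductase makes them from ribonucleotides. Its large subunit is Rrm1, and its small subunit is Rrm2 in dividing cells or Rrm2b, a p53-induced form used for DNA repair and mitochondrial DNA. Thymidylate synthase, Tyms, turns dUMP into dTMP with a folate carrier that Shmt1 helps to load, and Dut and Dctd feed it with dUMP. Tk1 and Dck make deoxynucleotides by the salvage route, from deoxynucleosides. Most of these genes are known as S phase genes, whose mRNA is high in dividing cells.

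The 9 genes are spread over 7 chromosomes, with Tyms and Dck sharing chromosome 5 and Tk1 and Shmt1 chromosome 11, none of them overlapping another. In the coordinates of the files, which overlap the GRCm38 position of every member, the reductase genes were Rrm1 at chr7:102441695-102469771, Rrm2 at chr12:24708241-24714146 and Rrm2b at chr15:37923952-37961318. The thymidylate branch was Tyms at chr5:30058202-30073617, Dut at chr2:125247190-125258608, Dctd at chr8:48099092-48153233 and Shmt1 at chr11:60788104-60811718. The salvage kinases were Tk1 at chr11:117815526-117826092 and Dck at chr5:88764996-88783281.

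The promoters of the genes for both subunits of the main reductase are shown because these genes moved together at the higher light dose. The sequences are the 250 bases before the annotated start in the RefSeq table of build GRCm38.p6, on the plus strand, at chr7:102441445-102441694 and chr12:24708004-24708253, with CCAAT in capitals.
Rrm1: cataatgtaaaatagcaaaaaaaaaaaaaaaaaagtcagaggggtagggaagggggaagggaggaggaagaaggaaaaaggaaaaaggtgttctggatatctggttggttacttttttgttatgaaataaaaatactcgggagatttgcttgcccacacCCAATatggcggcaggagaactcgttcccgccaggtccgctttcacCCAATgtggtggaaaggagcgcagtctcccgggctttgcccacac
Rrm2: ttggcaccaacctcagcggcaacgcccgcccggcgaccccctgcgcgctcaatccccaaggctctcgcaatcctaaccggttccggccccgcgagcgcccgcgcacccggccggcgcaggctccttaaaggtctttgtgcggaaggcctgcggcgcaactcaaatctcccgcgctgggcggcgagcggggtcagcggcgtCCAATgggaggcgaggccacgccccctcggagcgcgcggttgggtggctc
CCAAT was found at -91 and -45 in Rrm1 and at -50 in Rrm2, counted from the annotated start to the motif's leftmost base. On either strand it lay in the windows of 4 of the 8 members with a table entry (Rrm1, Rrm2, Dctd and Shmt1; Rrm2b had no entry), and in 33.8% of all 32851 windows. By the gene coordinates given above, the windows of Shmt1 and Dut and some of those of Dctd lay wholly inside the gene. The E2F-type letters TTTNNCGC lay in 0 of the 8 and in 4.28% of all windows. Other forms of the E2F site were not searched, so this count does not show that such sites are absent. The letters TTTGAA lay in 1 of the 8, Dck, and in 16% of all windows. These motifs do not overlap in the members' windows, and a match is a run of letters, not a shown binding site.

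In untreated cells, Rrm2 had the highest level per length of the 9 genes and Rrm2b the lowest. Mean levels in Ctrl were 141 FPKM for Rrm2, 88.5 for Dut, 37.2 for Tk1, 29.1 for Rrm1, 24.2 for Shmt1, 13.2 for Dctd, 12.6 for Tyms, 11.3 for Dck and 1.79 for Rrm2b. The ranges of Dctd and Tyms overlapped, as did those of Tyms and Dck, and no other neighbours in this order overlapped. The FPKM values divide by a gene length that joins all exons, and for Tk1 that length was 5198 bases against 1440 for its canonical transcript. Divided by the canonical transcript length instead, a choice made after the data were seen, Tk1 stood at 134 and above Dut at 89.4, and Rrm2 (149) and Rrm2b (3.57) kept the ends of the order.

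At 20 J/cm2 the group fell almost as a whole. Relative to Ctrl, 8 of 9 genes fell and 1, Rrm2b, rose (adjusted p below 0.05, limma on log2(FPKM + 1)), against 29.3% of all 11727 tested genes that fell and 23.9% that rose. Of the 9 genes, 7 fell by more than 0.6 on the log2 scale, against 5.87% of all tested genes. The median log2 fold change was -0.78 for the 9 genes and -0.03 for all tested genes. The groups did not overlap for any member: 8 had every Ep2 library below every Ctrl library (32.7% of all tested genes) and 1 had every Ep2 library above (27.0%). In bulk libraries, a smaller share of dividing cells and less of a transcript in each cell cannot be told apart.

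**Figure D1:**
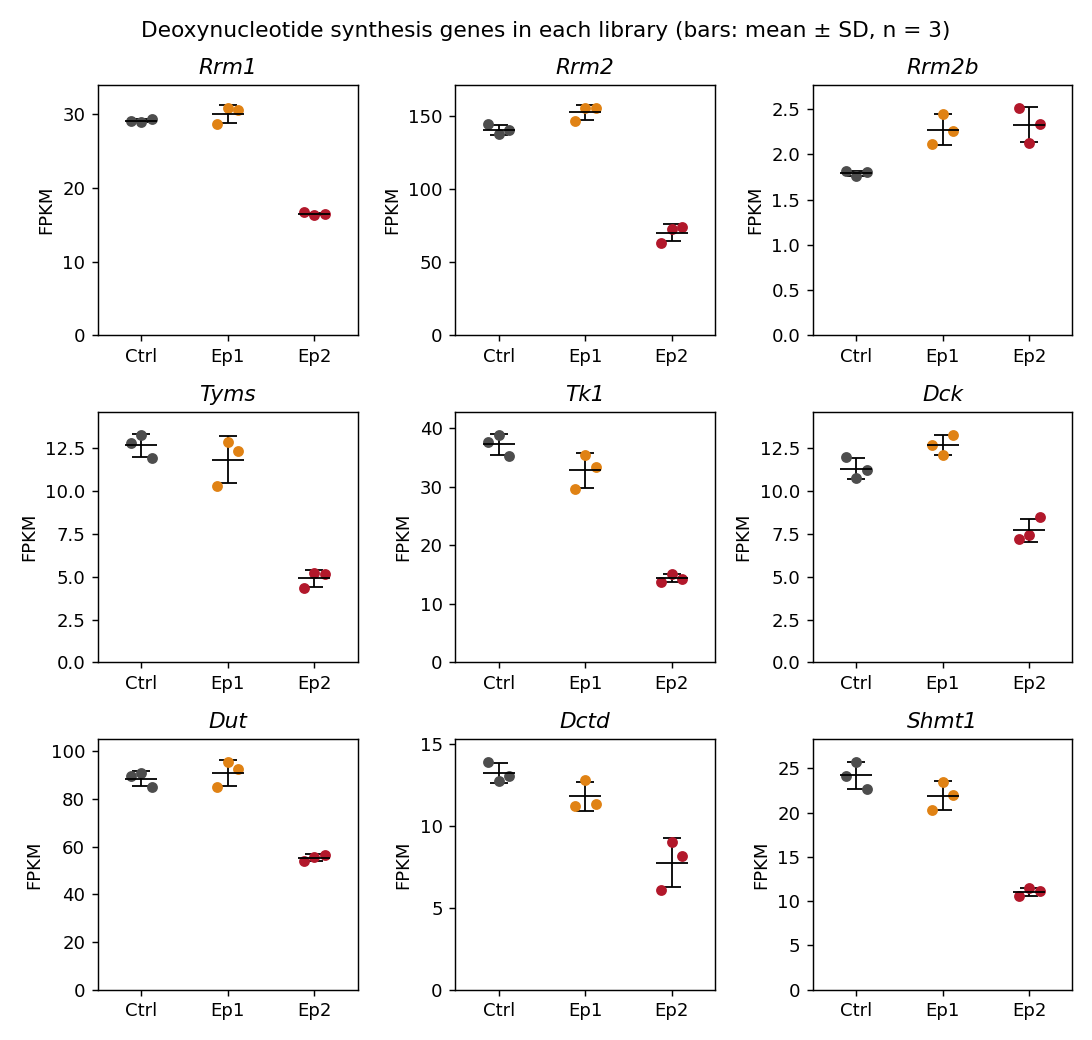
FPKM (vertical axes, from 0) of each gene in each Ctrl, Ep1 and Ep2 library; points are libraries and bars the mean ± SD of 3. In every panel but that of Rrm2b the Ep2 points lie below all other points, and in that of Rrm2b the Ctrl points lie below all others.

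In the reductase, Rrm1, which holds the catalytic site, read 29.1, 29.0 and 29.3 FPKM in Ctrl, 28.7, 30.9 and 30.6 in Ep1, and 16.7, 16.4 and 16.5 in Ep2. The libraries of Ep2 lay close together and far below the others, and Ep1 overlapped Ctrl. Its mean FPKM fell by 43.4% from Ctrl to Ep2, and its log2 fold change was -0.78 (limma, SE 0.04, adjusted p = 2.19e-06).

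Rrm2, the small subunit that carries the radical and is normally limiting in dividing cells, read 144, 137 and 140 FPKM in Ctrl, 146, 155 and 155 in Ep1, and 63.2, 72.8 and 74.0 in Ep2. Ep1 lay slightly above Ctrl without overlap, and Ep2 lay far below both. The mean fell by 50.2% from Ctrl to Ep2, which on the log2 scale was -0.998 (SE 0.06, adjusted p = 4.13e-06).

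Rrm2b, the alternative small subunit, read 1.81, 1.76 and 1.80 FPKM in Ctrl, 2.11, 2.45 and 2.26 in Ep1, and 2.52, 2.13 and 2.34 in Ep2. All treated libraries lay above all untreated ones, and Ep1 and Ep2 overlapped. Rrm2b was the only member that rose, with a value of 0.25 in log2 between Ep2 and Ctrl (SE 0.07, adjusted p = 0.0121), from a mean of 1.79 ± 0.0292 to 2.33 ± 0.193 FPKM (SD, n = 3). These values rest on 306 to 438 fragments a library. A pseudogene, Gm3362, lies inside Rrm2b on the same strand at chr15:37943327-37943792 and held up to 616 fragments. How reads shared by the 2 were counted is not given in the sources used here. Gm3362 ranged from 29.4 to 46.8 FPKM in Ctrl, from 45.3 to 71.2 in Ep1 and from 38.9 to 53.7 in Ep2, and its log2 fold changes relative to Ctrl of 0.80 in Ep1 (adjusted p = 0.0679) and 0.43 in Ep2 (adjusted p = 0.166) did not pass the test. Both were in the direction of Rrm2b. Its part in the Rrm2b values was not tested.

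In the thymidylate branch, Tyms read 12.8, 13.2 and 11.9 FPKM in Ctrl, 10.2, 12.8 and 12.3 in Ep1, and 4.33, 5.23 and 5.13 in Ep2. Its mean fell by 61.3% from Ctrl to Ep2, or by 1.21 in log2 (SE 0.09, adjusted p = 9.68e-06). Ep1 and Ctrl overlapped, and all Ep2 libraries were lower.

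Dut, the pyrophosphatase that removes dUTP and yields dUMP, read 89.6, 91.0 and 85.0 FPKM in Ctrl, 85.1, 95.5 and 92.4 in Ep1, and 53.9, 55.8 and 56.6 in Ep2. Dctd, which deaminates dCMP to dUMP, read 13.9, 12.7 and 13.1 in Ctrl, 11.2, 12.8 and 11.3 in Ep1, and 6.08, 9.02 and 8.16 in Ep2. Both were lower in Ep2 than in Ctrl. Dut fell by 0.67 in log2 (SE 0.05, adjusted p = 1.09e-05) and Dctd by 0.72 (SE 0.11, adjusted p = 0.000719). The Dctd libraries of Ep2 were spread from 6.08 to 9.02, and without Ep2 replicate 1, the lowest, its log2 fold change was -0.57, short of the 0.6 mark but still below 0.05 in adjusted p.

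Shmt1, the cytosolic serine hydroxymethyltransferase, read 24.2, 25.7 and 22.7 FPKM in Ctrl, 20.2, 23.5 and 22.0 in Ep1, and 10.6, 11.5 and 11.1 in Ep2. All Ep2 libraries lay below the rest, and the fall from Ctrl to Ep2 was -1.06 in log2 (SE 0.06, adjusted p = 4.50e-06). Smcr8, which overlaps Shmt1 on the other strand, rose by 0.18 in log2 (adjusted p = 0.00766), the opposite direction. Whether fragments were counted by strand is not given in the sources used here.

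The salvage kinases split in size. Tk1, the cytosolic thymidine kinase of S phase, read 37.6, 38.8 and 35.2 FPKM in Ctrl, 29.5, 35.3 and 33.4 in Ep1, and 13.7, 15.04 and 14.3 in Ep2. Dck, the deoxycytidine kinase that is also present in resting cells, read 11.9, 10.7 and 11.2 in Ctrl, 12.6, 12.1 and 13.2 in Ep1, and 7.20, 7.41 and 8.47 in Ep2. Tk1 had the largest estimate of the 9 genes in limma, -1.32 in log2 between Ep2 and Ctrl (95% interval -1.47 to -1.16, adjusted p = 2.48e-06). That interval overlapped those of Tyms and Shmt1. Dck had the smallest estimate of the 8 that fell, -0.50 (95% interval -0.65 to -0.35, adjusted p = 0.000222), with an interval that overlapped those of Dut and Dctd. Afmid, which overlaps Tk1 on the other strand, had at most 3.37 FPKM and 230 fragments, and fell by 0.32 in log2 (adjusted p = 0.0113).

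**Figure D2:**
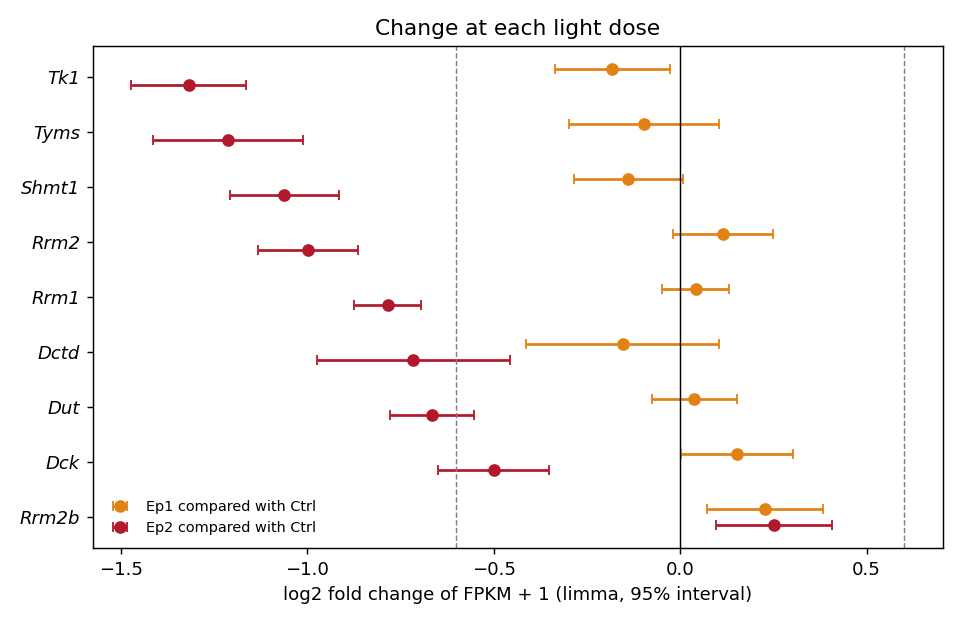
Log2 fold change of FPKM + 1 (horizontal axis) of each gene in Ep1 and in Ep2 compared with Ctrl; points are limma estimates, bars 95% intervals, and dashed lines mark 0.6 in either direction. In Ep2 the estimates ran from -1.32 for Tk1 to 0.25 for Rrm2b, and in Ep1 all lay between -0.18 and 0.23.

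At 10 J/cm2 no member passed the test. In Ep1 relative to Ctrl, 0 of 9 genes fell (4.97% of all tested genes did) and 0 rose (6.32%) by limma, and 3 had an unadjusted p under 0.05. These were Rrm2b (log2 fold change 0.23, SE 0.07, adjusted p = 0.0618), Tk1 (-0.18, SE 0.07, adjusted p = 0.114) and Dck (0.15, SE 0.07, adjusted p = 0.161). The median log2 fold change of the 9 was 0.04 and that of all tested genes -0.01. Every Ep1 library lay above every Ctrl library for 3 members, Rrm2, Rrm2b and Dck (20.8% of all tested genes), and below for 0 (20.5%). The fragment-based test voom called 2 members: Rrm2b higher (0.32, adjusted p = 0.0292) and Tk1 lower (adjusted p = 0.0293). Rrm2b also passed when Ep2 was left out of the fit (adjusted p = 0.0486) and without Ep2 replicate 1 (0.0406). Its adjusted p ranged from 0.0292 to 0.178 over the alternatives.

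The 2 light doses were then compared directly. In Ep2 relative to Ep1, 8 of 9 members fell (25.2% of all tested genes) and 0 rose (18.8%), and 7 fell by more than 0.6 (3.97%). All 8 were without overlap between the groups (30.3% of all tested genes), and none lay wholly above (24.1%). Log2 fold changes were -1.13 for Tk1, -1.12 for Tyms, -1.11 for Rrm2, -0.92 for Shmt1, -0.83 for Rrm1, -0.70 for Dut, -0.65 for Dck and -0.56 for Dctd, with adjusted p of at most 0.00379, the value for Dctd. For Rrm2b the difference between the doses was 0.02 (95% interval -0.13 to 0.18, adjusted p = 0.802), so these libraries did not resolve one. Without Ep2 replicate 1 the Rrm2b value was -0.016, and without Ep1 replicate 1 it was -0.012. This comparison and that with Ctrl share the Ep2 libraries.

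Ratios between genes within a library compare mRNA levels only. The protein balance of the subunits was not measured. These ratios do not depend on how a library was scaled, but their size depends on the gene length used. In Ctrl, Rrm2 was 4.83 ± 0.115 times Rrm1 in FPKM (SD, n = 3), in Ep1 5.07 ± 0.0454 times and in Ep2 4.25 ± 0.391 times. The Ep2 libraries read 3.80, 4.45 and 4.49, all below the lowest Ctrl library at 4.74. The difference between Ep2 and Ctrl was -0.19 in log2, and -0.11 without Ep2 replicate 1. By canonical transcript length the ratio was lower throughout. It read 2.25, 2.16 and 2.17 in Ctrl and 1.73, 2.02 and 2.04 in Ep2.

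The Rrm2b share of the small subunit mRNA (Rrm2b among Rrm2 and Rrm2b together, in FPKM) was 1.24%, 1.26% and 1.27% in the Ctrl libraries. It was 1.42%, 1.56% and 1.43% in Ep1 and 3.83%, 2.84% and 3.07% in Ep2. The 3 groups did not overlap. The ratio of Rrm2b to Rrm2 was 2.61-fold higher in Ep2 than in Ctrl and 1.17-fold higher in Ep1 than in Ctrl. Both terms moved from Ctrl to Ep2, where mean FPKM relative to Ctrl was 0.498 for Rrm2 and 1.30 for Rrm2b. Relative to Ep1, the Ep2 means were 0.460 for Rrm2 and 1.02 for Rrm2b. By canonical transcript length the mean share was 2.35% in Ctrl, 2.74% in Ep1 and 5.95% in Ep2.

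The ratio of Tk1 to Dck was 3.31 ± 0.272 in Ctrl, 2.60 ± 0.304 in Ep1 and 1.87 ± 0.174 in Ep2. It was 1.77-fold lower in Ep2 than in Ctrl, with no overlap. By canonical transcript length this ratio read 9.51, 10.9 and 9.49 in Ctrl and 5.74, 6.12 and 5.08 in Ep2. All 9 comparisons of a ratio between a pair of groups were without overlap, and each gave p = 0.1 in the exact two-sided permutation test, the smallest that 3 against 3 libraries allow, and 0.1 after adjustment over the 9. None could reach 0.05 in this design. The 9 comparisons reuse the same libraries and are not independent, and how often ratios of other gene pairs lack overlap was not measured.

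**Figure D3:**
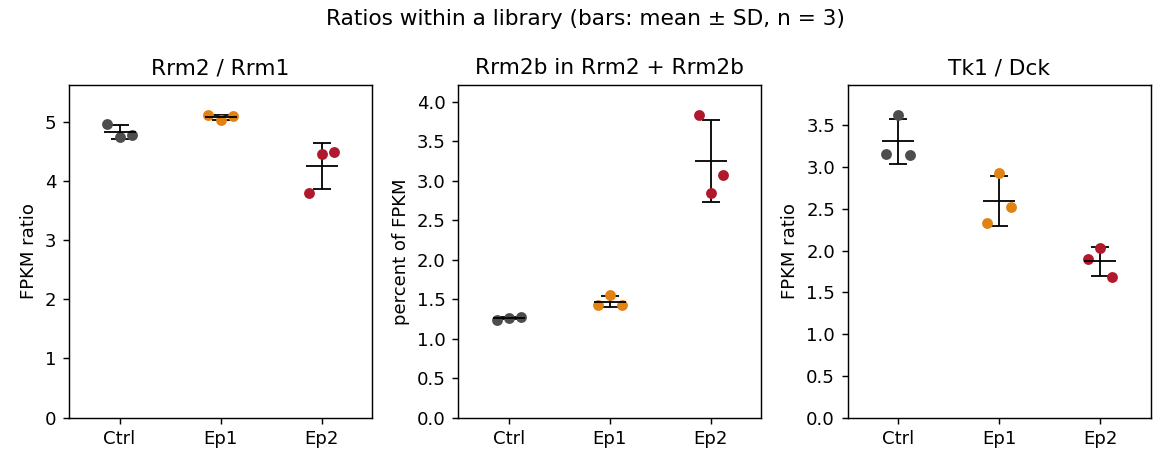
Ratio of Rrm2 to Rrm1, share of Rrm2b in Rrm2 and Rrm2b together (percent of FPKM), and ratio of Tk1 to Dck in each library (points), with the mean ± SD of 3 (bars); vertical axes start at 0. The Rrm2b share was 1.26% in Ctrl, 1.47% in Ep1 and 3.25% in Ep2 on average.

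The neighbouring enzymes of the same supply were read from lists of related genes. In Ep2 relative to Ctrl, 29.3% of all tested genes fell and 23.9% rose, the shares beside which each list count stands. Among 18 partners in deoxynucleotide synthesis, 10 fell and 1 rose in Ep2 relative to Ctrl, with a median log2 fold change of -0.51. Those that fell included Nme4, a nucleoside diphosphate kinase (12.7 to 5.34 FPKM, -1.12), and Mthfd1, a folate enzyme (43.5 to 21.9, -0.96). Cmpk2, a mitochondrial nucleotide kinase, rose from 2.003 to 2.86 FPKM (0.36, adjusted p = 0.00488). The mitochondrial salvage kinases did not pass the test: Tk2 had a log2 fold change of 0.26 (adjusted p = 0.0730) and Dguok of -0.09 (adjusted p = 0.275).

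Of 14 genes that break down or clean up deoxynucleotides, 7 fell and 0 rose, with a median of -0.19. Its largest falls were Dnph1, which hydrolyses deoxynucleoside monophosphates (38.7 to 10.98 FPKM, -1.73), and Dctpp1, a dCTP pyrophosphatase (62.5 to 24.9, -1.29). Nudt1, which removes oxidised purine nucleotides, fell from 11.2 to 5.68 (-0.87). Samhd1, the triphosphohydrolase that degrades deoxynucleotides, fell less, from 13.6 to 10.3 (-0.36, adjusted p = 0.000108).

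Many genes of the routes that make the ribonucleotide precursors also fell. Of 16 purine synthesis genes, 14 fell and 0 rose (median -0.47), with Gart (41.8 to 20.5 FPKM, -0.99), Prps1 (31.1 to 16.2, -0.90) and Pfas (19.7 to 11.7, -0.71) in front. Of 7 pyrimidine synthesis genes, 4 fell and 0 rose (median -0.33). The genes that fell were Umps (-0.96), Cad (-0.89), Dhodh (-0.60) and Ctps (-0.33), all of them in the de novo route or at its end. Ctps2, Uck1 and Uck2 did not pass. For only 7 genes, this count is not set apart from the 29.3% of all tested genes that fell.

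Of 6 genes that supply electrons to the reductase or control its subunits, 3 fell and 2 rose (median -0.15). With so few genes these counts are not set apart from the 29.3% and 23.9% of all tested genes. Fzr1 and Ccnf, which direct the breakdown of the Rrm2 protein, fell by 0.90 and 0.72 in log2, in the same direction as Rrm2 mRNA. Txn1, thioredoxin, fell by 0.31. Txnrd1, the thioredoxin reductase, rose from 55.4 to 73.4 FPKM (0.39, adjusted p = 0.00437), and Ahcyl1, a regulator of the reductase, rose by 0.16 (adjusted p = 0.0315).

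Replication genes were read as well. All 6 subunits of the MCM helicase, which unwinds DNA ahead of the polymerases, fell (median -0.82), with Mcm7 (76.5 to 36.1 FPKM, -1.06), Mcm5 (-1.06) and Mcm2 (-0.95) in front. Of 12 subunits of the polymerases and primase, which build new strands, 10 fell and 1 rose (median -0.61). The largest falls were those of Pold2 (-1.36), Pold1 (-1.22) and Pole (-0.98), and Pold4, the small accessory subunit of polymerase delta, rose (0.44, adjusted p = 0.00192). The study's list of hub genes was drawn at a fold threshold stricter than 0.6, without naming the dose. It marks MCM5, MCM7 and POLE as down-regulated, the direction found here in Ep2, and MCM4 and POLE2 as up-regulated. In Ep2 relative to Ctrl, Mcm4 (-0.45) and Pole2 (-0.38) were among the genes that fell. In Ep1 relative to Ctrl, Mcm4 rose (0.18, limma adjusted p = 0.0218) and Pole2 did not pass (-0.04, adjusted p = 0.753).

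Since Rrm2b is a known p53 target, 14 p53 target genes were read beside it. In Ep2 relative to Ctrl, 13 were tested, 7 fell (29.3% of all tested genes) and 1 rose (23.9%), with a median of -0.38. The riser was Mdm2, the ubiquitin ligase of p53 (0.28, adjusted p = 0.00107), and the largest falls were Phlda3 (-0.96), Aen (-0.60) and Zmat3 (-0.46). In Ep1 relative to Ctrl, 2 rose, Mdm2 (0.35, adjusted p = 0.00704) and Plk2 (0.71, adjusted p = 0.0274), and 1 fell, Phlda3 (-0.31). Over all tested genes at this dose, 6.32% rose and 4.97% fell. Mdm2 and Plk2 had positive values at both doses, as Rrm2b did, but Plk2 did not pass in Ep2 (0.28, adjusted p = 0.159). Cdkn1a had a log2 fold change of -0.28 in Ep2 that did not pass (adjusted p = 0.0621).

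**Figure D4:**
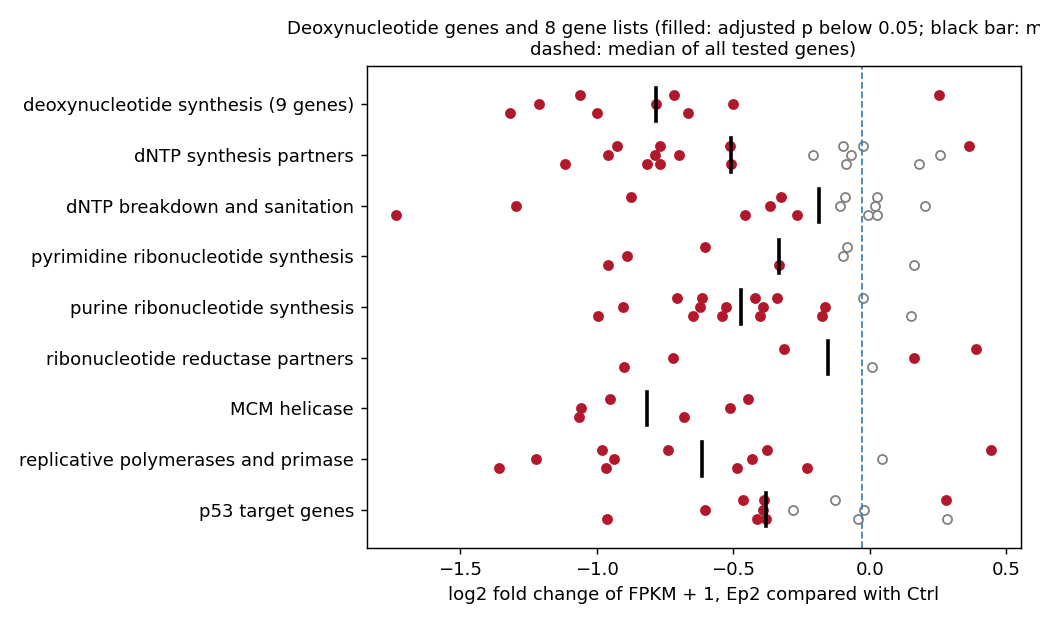
Log2 fold change of FPKM + 1 in Ep2 compared with Ctrl (horizontal axis) for the 9 deoxynucleotide synthesis genes and for each list of related genes; each point is a gene, filled where adjusted p is below 0.05, black bars are list medians and the dashed line is the median of all tested genes (-0.03). The medians run from -0.82 for the MCM helicase to -0.15 for the reductase partners, with the 9 genes at -0.78.

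At the lower dose, of 79 genes tested in the 7 lists other than the p53 list, 4 rose (5.06%) and 3 fell (3.8%), near the shares of all tested genes (6.32% and 4.97%). In Ep1 relative to Ctrl, Mthfd1l (0.13), Gmps (0.15), Mcm4 (0.18) and Pole4 (0.24) rose, and Dhodh (-0.27), Pola2 (-0.17) and Pold1 (-0.25) fell, chosen here because they were the only calls outside the p53 list. No gene of the breakdown list or of the reductase partners passed.

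Correlations were taken over the same 9 libraries that showed the fall of the 8 genes. Values among these 8 were therefore bound to be high. Pearson's r between log2(FPKM + 1) of these genes ran from 0.834 (Dck and Dctd) to 0.999 (Tk1 and Shmt1), and r between Rrm2b and the others from -0.674 to -0.346. These values describe libraries that share 3 treatment groups, whose means were not removed, so they largely restate the fall in Ep2. Joint regulation was not tested. Among 7244 genes with a mean of at least 5 FPKM, those most like Rrm2 were Mrto4 (r = 0.996), Nup93 (0.995) and Pa2g4 (0.995). Those most like Tk1 were Eif1ad (0.998), Rfc2 (0.998) and Tuba1b (0.998), and those most like Rrm2b were Gars (0.960), Fez2 (0.941) and Ppp6c (0.940).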

How the data were processed

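RNA sequencing libraries of B.END3 cells, 3 each for Ctrl, Ep1 and Ep2, were read from a table of FPKM values that the authors deposited. Per the labels, the submitters' processing notes name Bowtie 0.12.2 and build mm8, while the study's methods name GRCm39; the positions in the table overlapped GRCm38 RefSeq positions for 9 of 9 members. The counting tool and its use of strand are not given in the sources used here. The 9 single-library files matched the joint table. FPKM values came out as whole fragments within 0.05 for 100% of values, which gave the library totals and the precision of low genes (counting error only).

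The 9 members, the gene lists and the tests were chosen with earlier results of these data known. Genes with at least 1 FPKM in at least 3 libraries (11727) were tested on log2(FPKM + 1) with limma 3.58.1 in R 4.3.3, in a fit over all 9 libraries with trended, robust variance and Benjamini-Hochberg adjustment within each comparison. Fold changes are on the log2(FPKM + 1) scale, which understates changes of low genes such as Rrm2b. A call needed adjusted p below 0.05, and a second mark was 0.6 in log2 fold change. The script was tested on simulated data. Ratios were compared with exact permutation tests. All members are described, and from each list up to 3 genes higher and 3 lower with the largest change in Ep2 relative to Ctrl are named, with a few others chosen after their values were seen. A gene that this rule would name is not reported here. Alternatives were a pseudocount of 0.1, no filter, a filter at a mean of 5 FPKM, median centring, a replicate block, the compared groups alone, voom on recovered fragments (14112 genes with at least 10 fragments) and each library left out.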

Additional observations from a re-analysis of the deposited data

How the results depend on the processing

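All 8 falls in Ep2 relative to Ctrl, and all 8 relative to Ep1, were called under every alternative run. In Ep1 relative to Ctrl, the count of members that rose was 1 with only the groups compared and 1 with voom, against 0, from 0 to 1 with each library left out, and the count that fell was 1 with voom. With the filter at a mean of 5 FPKM, Rrm2b was not tested, so 0 members rose in Ep2 relative to Ctrl and the median of the other 8 was -0.89. Leaving out libraries, the difference of Rrm2b between Ep2 and Ep1 ran from -0.016 to 0.068, and the number of members past 0.6 ran from 6 to 7 for Ep2 relative to Ctrl and from 7 to 8 relative to Ep1. Median centring turned the split over all genes in Ep2 relative to Ep1 from 2950 lower and 2206 higher to 2383 lower and 2974 higher, moved the median of all genes to 0.04, and left 8 members lower. In Ep2 relative to Ctrl the split of 3436 lower and 2800 higher became 2971 and 3311 with median centring and 3485 and 3561 with voom, again with 8 members lower. The count of all genes past 0.6 in Ep2 relative to Ctrl was 1075, and 1616 with a pseudocount of 0.1 and 2207 with voom. In Ep1 relative to Ctrl, calls over all genes fell from 583 lower and 741 higher to 78 lower and 115 higher without Ctrl replicate 2, so calls at that dose depend on single libraries. Replicate numbers were shared by the groups but did not pair the libraries (correlations of same-number deviations from -0.06 to 0.07). With the replicate block, Ep2 relative to Ctrl kept 8 members lower and 1 higher, Ep2 relative to Ep1 kept 8 lower, and the ratio of Rrm2b to Rrm2 differed by 1.38 in log2 (exact sign-flip p = 0.25, the smallest that 3 pairs allow).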
